A study of Drosophila melanogaster with 31 samples.

Results

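The comparison asks how the transcripts of ovaries mutant for hfp differ from their own heterozygous control beyond the change seen in ovaries mutant for pelota (pelo) against theirs. It is the interaction of genotype set and mutation, that is, the hfp difference (hfp mutant minus hfp heterozygote) minus the pelo difference (pelo mutant minus pelo heterozygote), with each difference taken between libraries of the same replicate number. It uses 8 of the 31 libraries of the series, 2 in each of 4 groups, and 8380 of the 9251 genes of the table, those with at least 1 TPM (transcripts scaled by length and to a common total per library) in 2 or more of the 8 libraries. All came from whole ovaries of Drosophila melanogaster dissected 1 to 3 days after eclosion, as poly(A) RNA with the same strand label. The hfp mutant is labelled hfp9/hfp9 and its control hfp9/TM2, and the pelo mutant is labelled pelo1/pelo1 and its control pelo1/CyO. TM2 and CyO are balancers, multiply inverted chromosomes with their own alleles. The controls are therefore heterozygous for the mutation and also carry a balancer that the mutants lack, and mutant and control differ along that whole chromosome. The 2 sets share no control, so a difference between the controls enters the interaction as much as one between the mutants. Every cell of the ovary is mutant in both mutants, not the germ line alone. The labels do not say whether the 2 replicates of a group came from separate flies or crosses, and each p value therefore reflects the spread between these libraries, which may be technical.

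Hfp is the fly relative of human PUF60, an RNA-binding protein of the splicing machinery that in the ovary is known for its part in splicing the ovarian tumor (otu) transcript, and elsewhere for restraining transcription of Myc. Pelo frees ribosomes stalled on broken or faulty mRNAs, and is known in the ovary for keeping germline stem cells. Ovaries move from stem cells and cysts in the germarium to large egg chambers, whose nurse cells fill the oocyte with maternal mRNA and whose follicle cells then make the vitelline membrane and chorion.

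A level of 1 TPM was reached by 7263 to 8193 genes per library, and sequencing depth is unknown because TPM keep no read counts. The first hfp mutant library stood apart, with a correlation of at most 0.91 with any other library, against 0.947 to 0.973 for the best match of the other 7. In the first pelo mutant library, transcripts of cytosolic ribosomal proteins summed to 459580 TPM, against 190800 to 330680 TPM in the other 7. Deviations of like-numbered libraries from their group means correlated at 0.727 within the hfp set and 0.663 within the pelo set, and at 0.173 to 0.382 across sets. Germline and follicle cell genes were abundant in all 8 libraries, with summed levels of 3745 to 14114 TPM for 44 genes of the maternal list and 8238 to 20936 TPM for 4 yolk genes. In bulk ovaries, fewer cells of a type and less RNA per cell cannot be told apart.

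The mutated genes were measured first. The hfp transcript, from chr3L:1496853-1502590, stood at 9.29 and 20.8 TPM in the hfp mutant, at 25.8 and 48.1 TPM in the hfp heterozygote, at 23.8 and 60.8 TPM in the pelo mutant and at 26.4 and 52.8 TPM in the pelo heterozygote. Within each number the hfp mutant was the lowest of the 4 groups. The interaction of hfp was -1.30 ± 0.61 on the log2(TPM + 1) scale (SE, limma), with an adjusted p of 1, and -1.24 and -1.37 in the 2 numbers taken alone. The pelo transcript, from chr2L:9700810-9708883, stood at 10.8 and 44.6 TPM in the pelo mutant, at 45.1 and 90.5 TPM in the pelo heterozygote, at 139 and 157 TPM in the hfp mutant and at 148 and 154 TPM in the hfp heterozygote. Both pelo groups, which carry the pelo1 allele, lay below both hfp groups. Its interaction was 1.45 ± 0.68, with an adjusted p of 1. Each mutated gene was thus lowest in its own mutant within each number, but neither passed the test on its interaction. In the otu gene, whose product works in early germ cells, the hfp mutant had 97.2 and 394 TPM and its heterozygote 436 and 630 TPM, and the pelo mutant had 124 and 534 TPM against 159 and 627 TPM. Its interaction was -1.12 ± 0.57 (adjusted p = 1 by limma). A level summed over a gene says nothing of which splice forms were made.

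Over all genes, 2 passed an adjusted p of 0.05 in the interaction (limma with Benjamini-Hochberg adjustment), both lower, which is 0.0239% of those tested, and none passed higher. An unadjusted p under 0.05 was reached by 274 genes, 3.27%, with 85 higher (1.01%) and 189 lower (2.26%). That share is below the fraction of 0.05 that uniform p values would give, so these genes as a class are a description. Without the replicate number as a block, no gene passed, and 196 had an unadjusted p under 0.05. With the number nested in each set, so that the hfp and pelo libraries of one number share no term, 77 genes passed, 0.919% of those tested, with 25 higher (0.298%) and 52 lower (0.621%). The median standard error of the interaction was 0.664 on the log2 scale. The interaction had the same sign in both numbers in 4553 genes, 54.3%, and its values in the 2 numbers correlated at 0.279 across genes.

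**Figure D1:**
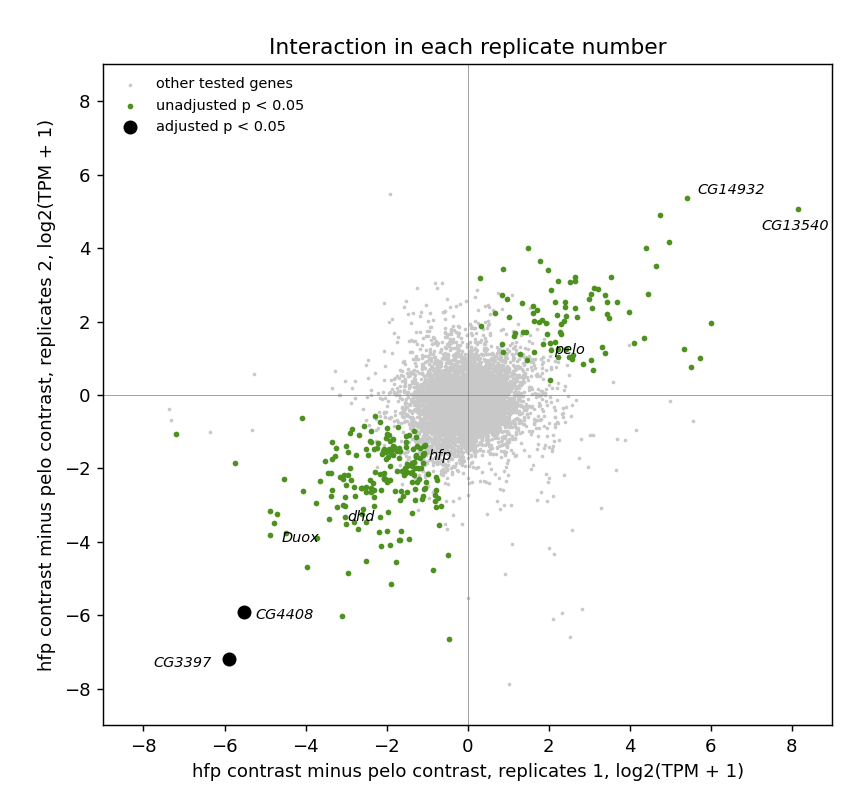
Each point is a gene, with the interaction (hfp difference minus pelo difference, log2(TPM + 1)) between the replicates 1 on the x axis and between the replicates 2 on the y axis. The 274 genes with an unadjusted p under 0.05 are green and lie in the quadrants of equal sign, and the 2 that passed the adjusted threshold, CG3397 and CG4408, are black at the lower left.

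The hfp difference and the pelo difference correlated at 0.551 across genes, as a description, between sets that share no library but share the replicate number as a term. In the hfp contrast, 26 genes rose, 0.310% of those tested, and 14 fell, 0.167%, together 0.477%. In the pelo contrast, 14 genes rose, 0.167%, and none fell. CG7443 was the 1 gene that passed in both. The hfp risers had a median hfp difference of 3.23 and a median pelo difference of 0.54, and the hfp fallers had -3.85 and -0.016. The pelo risers had a median pelo difference of 3.26 and a median hfp difference of 0.50. Among the 40 genes called in the hfp contrast, 33 had an unadjusted p under 0.05 in the interaction and 30 passed with the number nested. Among the 14 called in the pelo contrast, these counts were 10 and 10. These counts describe genes picked by one part of the same difference and are no separate evidence.

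**Figure D2:**
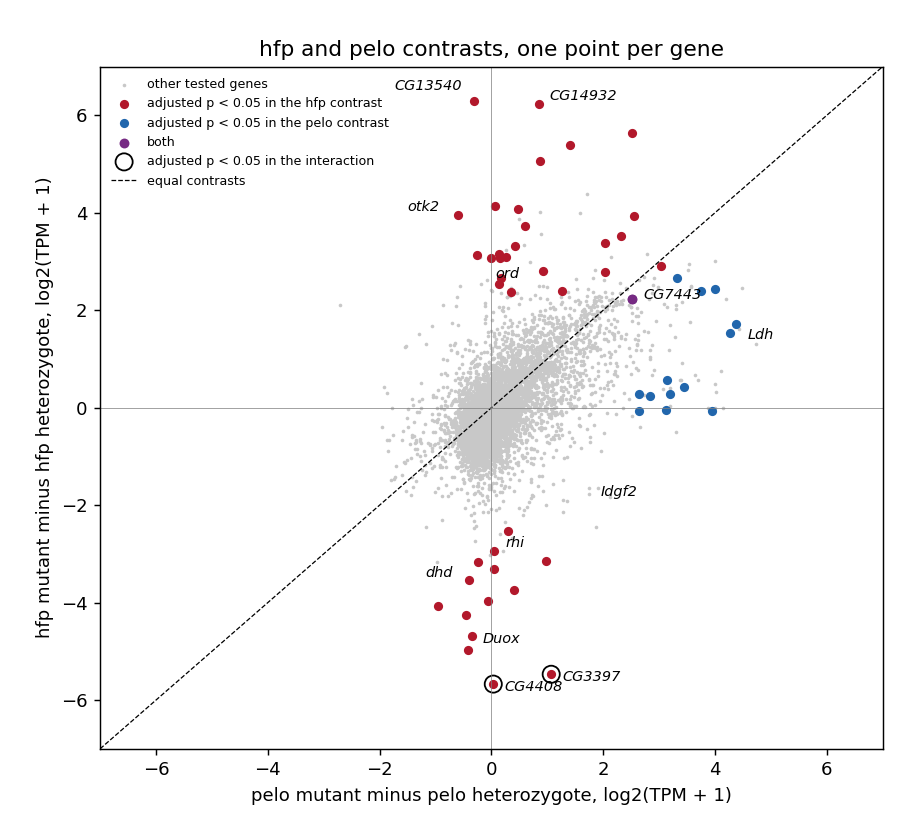
Each point is a tested gene, with its difference between pelo mutant and heterozygote on the x axis and between hfp mutant and heterozygote on the y axis, both in log2(TPM + 1). The 40 genes called in the hfp contrast (red) lie mostly near the vertical axis, most of the 14 called in the pelo contrast (blue) lie to the right of the dashed line of equal contrasts, and circles mark the 2 genes called in the interaction.

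Of the 2 genes that passed, CG4408 at chr3R:23361889-23363574 was near 0 in both hfp mutant libraries. It was at 0 and 0.0544 TPM in the hfp mutant, 56.9 and 46.3 TPM in the hfp heterozygote, 63.8 and 98.5 TPM in the pelo mutant and 81.2 and 73.9 TPM in the pelo heterozygote. The hfp mutant lay far below the other 6 libraries. Of those, the hfp heterozygote was the lowest, and the pelo mutant and pelo heterozygote overlapped. The interaction was -5.71 ± 0.67 with an adjusted p of 0.049, just under the threshold, and it passed under 12 of the 19 settings tried. In the other adult, young and tst libraries of total mRNA, CG4408 lay between 15.9 and 80.6 TPM. Among inputs it was at 2.00 TPM in bam RNAi and at 25.1 and 27.6 TPM in tst RNAi, against 88.8 and 80.4 TPM in controls.

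The second gene, CG3397 at chr3R:11983098-11984541, took its interaction from the hfp heterozygote as well. It stood at 0.0864 and 0 TPM in the hfp mutant, 52.5 and 38.9 TPM in the hfp heterozygote, 5.23 and 3.72 TPM in the pelo mutant and 4.22 and 0.279 TPM in the pelo heterozygote. The hfp heterozygote was the group apart, above all the rest, and the hfp mutant was below them. The interaction was -6.54 ± 0.81 (adjusted p = 0.049 by limma), and the heterozygotes differed from each other by 4.16 (adjusted p = 0.0231 by limma). CG3397 passed under 9 of the 19 settings. It was at 0 to 0.211 TPM in adult and young wild type and at 26.8 and 39.4 TPM in the tst mutant, so its level varied between stocks outside these sets too. For CG3397 the TM2 chromosome, the stock and the loss of hfp cannot be told apart.

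The next genes on the lower side did not pass in the interaction. Duox, CG5568, CG40006, CG8539 and dhd passed in the hfp contrast, and in each the 2 hfp mutant libraries lay below all 6 others. Over all genes, both hfp mutant libraries lay below the other 6 in 255, 3.04% of those tested. Duox, the NADPH oxidase that makes hydrogen peroxide at epithelial surfaces, stood at 0.991 and 6.46 TPM in the hfp mutant and 88.9 and 108 TPM in its heterozygote, against 20.2 and 88.9 TPM in the pelo mutant and 31.7 and 92.8 TPM in the pelo heterozygote. Its hfp difference was -4.68 (adjusted p = 0.00599 by limma) and its interaction -4.34 ± 0.75 (adjusted p = 0.152). The dominant Curly wing marker of CyO is an allele of Duox, so the pelo heterozygote carries an altered copy. Duox lies at chr2L:2815970-2830248. CG5568 stood at 4.32 and 1.44 TPM in the hfp mutant and at 35.2 to 140 TPM in the other 6, with an hfp difference of -4.97 (adjusted p = 0.0108). CG40006 stood at 1.56 and 2.9 TPM in the hfp mutant and at 11.9 to 68.3 TPM in the other 6 (hfp difference -4.26, adjusted p = 0.00988). CG8539 was at 0.534 and 0.537 TPM in the hfp mutant and at 7.53 to 19.2 TPM elsewhere (hfp difference -3.14, adjusted p = 0.0294).

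Deadhead (dhd), the thioredoxin of the female germ line that is loaded into the egg and acts on sperm chromatin at fertilization, was the most abundant of these genes. Its level was 391 and 708 TPM in the hfp mutant and 6723 and 5603 TPM in its heterozygote. The pelo mutant had 4130 and 4945 TPM and its heterozygote 7580 and 4714 TPM, so both hfp mutant libraries lay below the other 6, which overlapped. The hfp difference was -3.54 ± 0.38 (adjusted p = 0.00472), the pelo difference -0.40, and the interaction -3.14 ± 0.54 (adjusted p = 0.152, and 0.00265 with the number nested). Outside these sets dhd stood at 1312 and 1524 TPM in young wild type, at 929 and 3215 TPM in the tst mutant and at 679 and 839 TPM in tst RNAi inputs, of which the lowest lay below the second hfp mutant library. The dhd gene lies at chrX:5312171-5313125 in a dense cluster, with 11 other tested genes starting within 20 kb, none called in the hfp contrast. The closest start is that of CG4198, 1.09 kb away, which was at 1.54 and 1.67 TPM in the hfp mutant and at 2.27 to 7.36 TPM in the other 6 (hfp difference -1.60, adjusted p = 0.291, interaction -1.37). TrxT, the thioredoxin of the male germ line, and snf, a spliceosome protein, had interactions of -0.08 and 0.63.

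Rhino (rhi) is the heterochromatin protein 1 relative that marks germline piRNA clusters. It was the 1 piRNA gene of 34 tested that was called lower in the hfp contrast. Of all genes, 0.167% were called lower there. Negative hfp differences, called or not, were found in 21 of the 34 and in 4825 of all 8380 genes. The level of rhi was 5.56 and 4.03 TPM in the hfp mutant and 53 and 35 TPM in the hfp heterozygote. It was 59.1 and 115 TPM in the pelo mutant and 85.7 and 74 TPM in the pelo heterozygote. Both hfp mutant libraries lay below all others. The hfp difference was -2.94 (adjusted p = 0.0328), the pelo difference 0.05, and the interaction -2.99 ± 0.69 (adjusted p = 0.399, and 0.015 with the number nested). Over the piRNA list the median interaction was -0.24, against -0.11 over all genes, and with 1 library left out it ran from -0.75 (without the first pelo mutant library) to 0.36 (without the second).

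**Figure D3:**
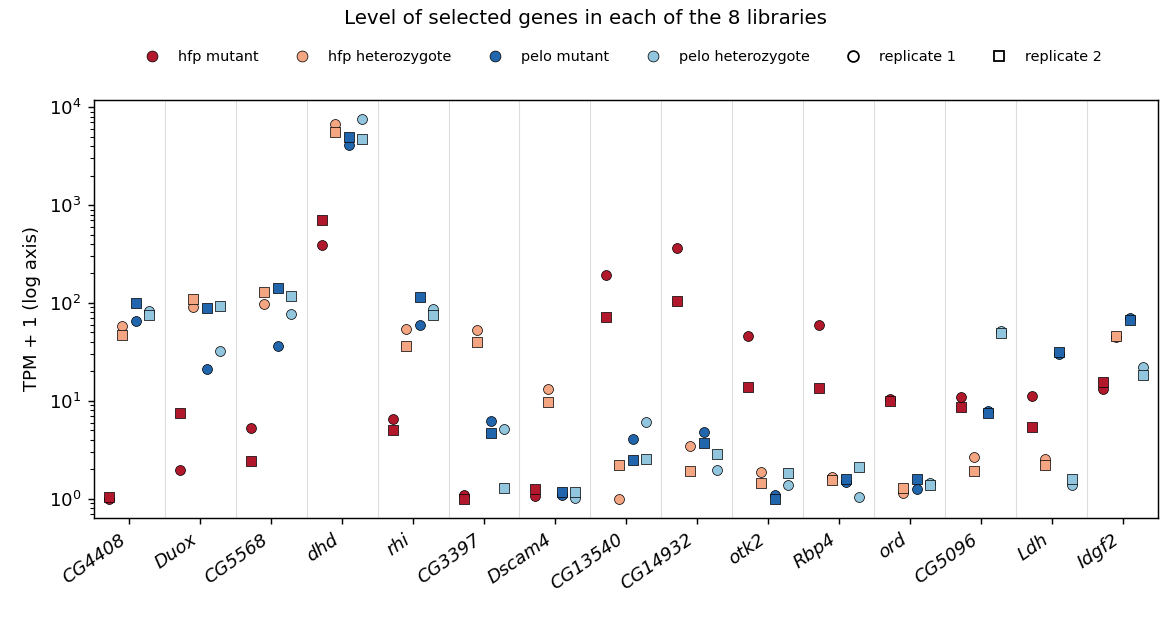
Levels of 15 genes in the 8 libraries, as TPM + 1 on a log axis, with colours for the 4 groups and circles and squares for replicates 1 and 2. The hfp mutant is the low group for CG4408, Duox, CG5568, dhd and rhi and the high group for CG13540, CG14932, otk2, Rbp4 and ord. The hfp heterozygote stands apart for CG3397 and Dscam4, the pelo heterozygote for CG5096, and the pelo mutant for Ldh.

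On the higher side no gene passed in the interaction itself. Of the 12 named by the rule, 11 passed in the hfp contrast, in which 0.310% of all genes rose. The 12 were picked by their interaction, of which the hfp contrast is a part, so this count is no separate evidence. CG13540 was at 190 and 71.1 TPM in the hfp mutant, at 0 and 1.22 TPM in the hfp heterozygote, at 3.06 and 1.48 TPM in the pelo mutant and at 5.04 and 1.57 TPM in the pelo heterozygote. CG14932 was at 364 and 103 TPM in the hfp mutant and at 0.931 to 3.87 TPM in the other 6 libraries. Both genes were high in the hfp mutant alone, with interactions of 6.61 ± 0.94 (adjusted p = 0.0904) and 5.38 ± 0.87 (adjusted p = 0.152), and both passed with the number nested (0.000795 for each). The off-track relative otk2, a receptor-like protein linked to Wnt signalling, was at 45.2 and 12.9 TPM in the hfp mutant and at 0 to 0.867 TPM in the other 6 (hfp difference 3.95, adjusted p = 0.018). GstD5, a glutathione transferase, was at 106 and 40.1 TPM against 0.128 to 3.09 TPM (hfp difference 5.06, adjusted p = 0.0143). The first hfp mutant library, the one that stood apart, was the higher of the pair in 25 of the 26 hfp risers, and in 23 of them the second also exceeded all 6 other libraries. Without the first library 30 genes passed in the hfp contrast, and without the second 315.

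Rbp4, an RNA-binding protein of spermatocytes, was at 59.1 and 12.7 TPM in the hfp mutant and at 0.0344 to 1.09 TPM in the other 6 libraries, and rose in the hfp contrast by 4.14 (adjusted p = 0.0314). Gld2, the cytoplasmic poly(A) polymerase of spermatogenesis, was at 14.6 and 11.9 TPM against 0.0102 to 1.32 TPM (hfp difference 3.08, adjusted p = 0.0225). Taf12L, a testis form of a general transcription factor subunit, was at 98.7 and 79.6 TPM in the hfp mutant, 4.95 and 14.2 TPM in its heterozygote and 0.44 to 1.64 TPM in the pelo set. It did not pass in the hfp contrast (adjusted p = 0.0612) and had an interaction of 2.98 ± 0.86. Taf12L belongs to the testis list, which holds neither Rbp4 nor Gld2. No member of the 15 tested in that list passed in the hfp contrast, and 5 had a positive interaction and 10 a negative one, with a median of -0.36. Over all tested genes, 3334 interactions were positive and 5046 negative. Its members with an unadjusted p under 0.05 in the interaction were 3, all higher, namely Rpt3R, Taf12L and dany. Rpt3R, a testis form of a proteasome subunit, had an hfp difference of 1.26 and a pelo difference of -1.53.

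A group of 3 neighbouring genes on chromosome arm 2R rose in the hfp contrast. Orientation disrupter (ord), which holds sister chromatids together in meiosis, was at 9.56 and 8.97 TPM in the hfp mutant and at 0.156 to 0.597 TPM in the other 6 libraries. CG13540 starts 0.78 kb before ord and CG12782 starts 6.99 kb before it. CG12782 was at 25 and 8.5 TPM in the hfp mutant and at 0.176 to 1.6 TPM in the other 6. All 3 genes passed in the hfp contrast, with differences of 3.06 for ord, 6.30 for CG13540 and 3.73 for CG12782, against pelo differences of -0.00, -0.31 and 0.61. No other tested gene starts within 20 kb of ord, so the window holds only these 3, and it was chosen after their values were seen. The annotation shows no overlap for these genes, and whether reads of one were counted for another was not tested.

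Some of these genes also had unusual levels in bam RNAi ovaries, where germ cells stop before differentiation. They were measured there in a single input library, so the levels are given as a description, beside the 2 control inputs of the same preparation. CG13540 reached 172 TPM in bam RNAi, against 0.587 and 2.86 TPM in control inputs, and CG14932 at 190 TPM against 1.15 and 0.861 TPM. Ord was at 63.9 TPM against 0.435 and 0.208 TPM. These 3 genes, high in the hfp mutant, were thus high in bam RNAi too, while Rbp4 was at 1.64 TPM there against 0.920 and 0.613 TPM. Of the genes low in the hfp mutant, dhd was at 26.6 TPM against 6089 and 5330 TPM, and CG4408 at 2.00 TPM against 88.8 and 80.4 TPM. But rhi was at 73.9 TPM against 80.1 and 93.7 TPM, and CG8539 at 14.1 TPM against 0.604 and 9.43 TPM. In bam RNAi, 15 of the 26 hfp risers lay at least 2 in log2(TPM + 1) above the highest heterozygote library. That is 57.7%, against 6.89% of all genes. Of the 14 hfp fallers, 8 lay as far below the lowest heterozygote library, 57.1% against 2.08% of all genes. These shares use the heterozygote libraries of the comparison, not the control inputs. The hfp heterozygotes also served to pick the risers and fallers, so the shares of all genes are no fair background. The counts are therefore no separate evidence, and they rest on a single bam RNAi library.

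Other interactions came from the pelo side. Lactate dehydrogenase (Ldh), which turns pyruvate to lactate, was at 29.2 and 30.8 TPM in the pelo mutant and 0.376 and 0.597 TPM in the pelo heterozygote. It was at 10.2 and 4.44 TPM in the hfp mutant and 1.54 and 1.22 TPM in the hfp heterozygote. Ldh was thus higher in both mutants than in their controls, by 4.38 in the pelo set (adjusted p = 0.0249) and by 1.72 in the hfp set (adjusted p = 0.239), and its interaction was -2.67 ± 0.73. MFS3, of a family of membrane transporters, was at 12.6 and 8.45 TPM in the pelo mutant and at 0 to 0.708 TPM in the other 6 libraries (pelo difference 3.45, adjusted p = 0.0249). CG10559 was at 14 and 14.6 TPM against 0.32 to 1.25 TPM (pelo difference 3.13, adjusted p = 0.0468). Idgf2, a secreted chitinase-like growth factor, lay on opposite sides of its controls. Idgf2 was at 12.4 and 14.8 TPM in the hfp mutant against 44 and 45.5 TPM, and at 69.1 and 65.3 TPM in the pelo mutant against 21 and 17.6 TPM. The Idgf2 interaction was -3.41 ± 0.61 (adjusted p = 0.166), near -3.4 in each number alone (-3.42 and -3.39), while neither contrast passed (adjusted p = 0.164 and 0.165).

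A number of interactions went with the controls. The heterozygotes differed from each other in 13 genes, 0.155% of those tested, with 6 higher (0.0716%) and 7 lower (0.0835%) in the hfp heterozygote, and the mutants differed in 88 genes, 1.05%. Dscam4, a cell adhesion protein, was at 12.4 and 8.87 TPM in the hfp heterozygote alone and at 0.0263 to 0.267 TPM in the other 6 libraries. Its interaction of -3.35 ± 0.60 (adjusted p = 0.166) was matched in size by the difference between heterozygotes, 3.38 (adjusted p = 0.0164). Dscam4 was among the hfp fallers (hfp difference -3.31, adjusted p = 0.0108 by limma), as was DIP-lambda (-2.54, adjusted p = 0.0489 by limma). In both, as in CG3397, the hfp heterozygote was the high group, so such fallers are not low in the hfp mutant alone. Outside these sets, adult wild type ovaries of the same age range had 3.95 and 4.8 TPM of Dscam4, below the hfp heterozygote. Young wild type ovaries had 15.0 and 33.7 TPM, above it. The gene was at 6.79 and 6.13 TPM in tst RNAi and at 0.181 and 0.207 TPM in the tst mutant. CG5096, at chr2L:10382263-10384723, was at 50.5 and 48.7 TPM in the pelo heterozygote and at 0.912 to 10.1 TPM in the other 6. Among libraries outside the comparison, the second control input, also labelled pelo1/CyO, had 40.03 TPM of CG5096, and the first control input, of another genotype, had 0.375 TPM. For CG5096 the CyO chromosome and the pelo1 allele in 1 copy cannot be told apart. Of the 77 genes called with the number nested, the group standing farthest from the other 3 was the hfp mutant on the high side in 22 and on the low side in 24. It was the pelo mutant on the high side in 21 and on the low side in 2, and the hfp heterozygote on the high side in 6.

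Genes with an unadjusted p under 0.05 in the interaction were spread over the arms. They were 3.13% of tested genes on 3L, where hfp lies, and 3.74% on 3R. They were 3.47% on 2L, where pelo lies, and 3.36% on 2R, against 2.44% on the X and 5.48% (4 of 73 genes) on chromosome 4, neither of which a balancer covers here. TM2 covers both arms of chromosome 3 and CyO both arms of chromosome 2.

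The pelo contrast has a second measurement in total mRNA taken as input for polysome gradients, with 2 pelo mutant inputs and 2 control inputs, of which the second control is pelo1/CyO and the first a nanos-GAL4 driver stock. There, 2652 of 8426 genes passed, 31.5%, with 1229 higher (14.6%) and 1423 lower (16.9%). The interaction was not remeasured, since hfp has no such inputs. Of the 22 hfp risers tested in inputs, 14 were also called higher in pelo inputs, which the pelo contrast had called for 1 of the 26. CG13540 was at 8.72 and 8.38 TPM in pelo inputs against 0.587 and 2.86 TPM in control inputs, a difference of 1.95 (adjusted p = 0.0143), and CG14932 differed by 1.99 (adjusted p = 0.00176), while their hfp differences were 6.30 and 6.23. Dhd and Duox were lower in pelo inputs by -1.08 (adjusted p = 0.00946) and -0.88 (adjusted p = 0.0155) on the log2 scale. Of the 13 hfp fallers tested there, 4 were called lower and 1 higher, while rhi differed by -0.02 (adjusted p = 0.929) and CG4408 by -0.20 (adjusted p = 0.322). Of the 14 pelo risers, 12 were called higher in inputs. The exceptions include Cyp4p2, a cytochrome P450, which was at 45.9 and 11.3 TPM in the pelo mutant and at 0 to 0.763 TPM in the other 6 libraries. Cyp4p2 was listed at 0 in all 4 pelo and control inputs and at 20.7 and 30.01 TPM in adult wild type, although the pelo inputs bear the same genotype label as the pelo mutant.

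Gene lists showed what the sets share. No list member passed in the interaction, and the counts with an unadjusted p under 0.05 stand beside the 3.27% of all genes. With 1 library left out in turn, the median interaction changed sign in 20 of the 27 lists, and that of all genes ran from -0.44 to 0.21. The 7 that kept their sign in every such fit were the hfp-linked, maternal, gut and oviduct, heat shock, antimicrobial, glutathione and balancer marker lists. The muscle sheath list, 24 genes of the contractile cells around the ovarioles, had a median hfp difference of 1.99 and a median pelo difference of 1.66, with a median interaction of 0.11 and none under 0.05. Its summed level was 1780 to 2771 TPM in the 4 mutant libraries and 362 to 1025 TPM in the 4 heterozygotes, which do not overlap. Chorion genes had medians of -0.90 in the hfp contrast and -1.23 in the pelo contrast over 20 members, and vitelline membrane genes had -0.81 and -1.17 over 22. Within the vitelline list, CG14187 and Vm32E were the 2 with an unadjusted p under 0.05, both higher in the interaction, and both were lower in the pelo mutant (80.5 and 40.9 TPM of CG14187 against 290 and 178 TPM). Over all genes the medians were -0.10 and -0.02.

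**Figure D4:**
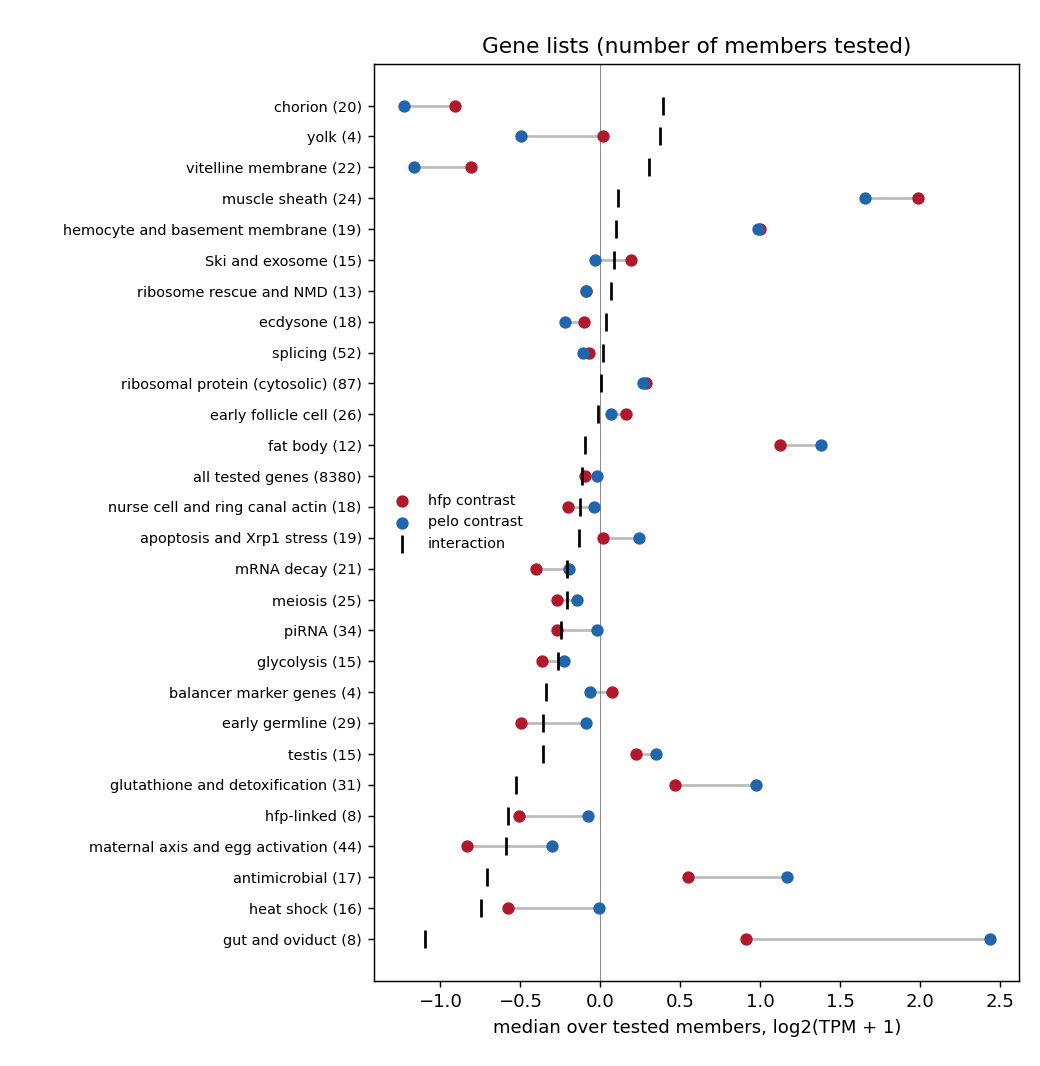
Median differences of the 27 gene lists and of all tested genes, in log2(TPM + 1), with the number of tested members in brackets. Red points are the hfp contrast, blue points the pelo contrast and black ticks the median interaction. Both points lie to the right for muscle sheath, hemocyte and fat body genes and to the left for chorion and vitelline membrane genes.

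The splicing list, closest to the known function of hfp, did not stand out. Splicing genes had a median interaction of 0.02 over 52 members, with none under an unadjusted p of 0.05. Of these, 27 were positive and 25 negative, against 3334 and 5046 over all tested genes. The hfp-linked list, with otu and Myc among its 8 members, had a median of -0.58, against -0.11 over all genes. Its median ran from -1.11 to -0.15 with 1 library left out, and no member had an unadjusted p under 0.05. The Myc interaction was -0.80 ± 0.72 (adjusted p = 1). The list of ribosome rescue and nonsense-mediated decay, around pelo, had a median of 0.07 over 13 members, and pelo itself had the smallest p in it. Ski and exosome genes had a median of 0.09 over 15 and mRNA decay genes -0.21 over 21. Cytosolic ribosomal protein genes had a median of 0.00 over 87.

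Maternal axis and egg activation genes had a median interaction of -0.59 over 44 members, 40 of them negative, against 5046 of the 8380 tested genes. Their median was -0.83 in the hfp contrast and -0.30 in the pelo contrast. The controls differed too, with a median hfp heterozygote minus pelo heterozygote of 0.54, against 0.32 over all genes. The median interactions were -0.55 and -0.59 in the 2 numbers, and 1 member, the serine protease snk of the dorsal pathway, had an unadjusted p under 0.05. The size of the list median depended on single libraries, controls included. It was -0.04 without the first hfp heterozygote library, -0.12 without the second pelo mutant library, -0.99 without the second hfp heterozygote library and -1.08 without the first pelo mutant library. The median of all genes in those fits was 0.15, 0.21, -0.38 and -0.44. With equal library medians the list stood at -0.39 and all genes at 0.06. Snk was at 3.15 and 5.94 TPM in the hfp mutant and at 10.2 to 18.5 TPM in the other 6 libraries. The torso receptor tor, which patterns the ends of the embryo, had 38.6 and 61.3 TPM in the hfp mutant against 130 and 101 TPM in its heterozygote, with an interaction of -1.45 ± 0.81 (adjusted p = 1). Early germline genes had a median of -0.36 over 29, from -0.92 without the second hfp heterozygote library to 0.24 without the first. Meiosis genes had -0.21 over 25, from -0.73 without the first pelo mutant library to 0.52 without the second, and 0.12 after quantile normalization.

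Of 31 glutathione and detoxification genes, 10 had an unadjusted p under 0.05, 32.3%, with GstD5 higher and 9 lower. Their median was 0.47 in the hfp contrast and 0.97 in the pelo contrast, with an interaction of -0.52. GstE6, at 462 and 295 TPM in the pelo mutant against 187 and 125 TPM, and at 323 and 198 TPM in the hfp mutant against 335 and 233 TPM, was one of the 9. Glutathione transferases are close copies, so reads may be split between them. Of 15 glycolysis genes, 4 reached that p, all lower, Ldh and the trehalose synthase Tps1 among them. The glycolysis medians were -0.37 in the hfp contrast and -0.23 in the pelo contrast. Heat shock genes had a median of -0.57 in the hfp contrast and -0.01 in the pelo contrast over 16. Their median interaction was -0.74, with 3 lower, and -0.40 and -1.20 in the 2 numbers. Genes of apoptosis and the Xrp1 stress response had a median interaction of -0.13 over 19, with none under 0.05.

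Antimicrobial genes had a median of 0.55 in the hfp contrast and 1.17 in the pelo contrast over 17, with an interaction of -0.71. The median interaction was 0.01 between the replicates 1 and -0.78 between the replicates 2, and it was -0.20 without the second pelo mutant library. Defensin (Def) was at 12.1 and 62.8 TPM in the pelo mutant and at 0 to 3.4 TPM in the other 6 libraries, and its interaction of -3.16 ± 1.02 did not pass (adjusted p = 0.852).

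Marker lists of other tissue varied between libraries of one group. The gut and oviduct list summed to 341 TPM in the first hfp mutant library and 438 TPM in the first pelo mutant library, and to 7.96 to 104 TPM in the other 6. The trypsin betaTry was at 190 TPM in the first pelo mutant library, at 1.09 TPM in the second and at 0 in all 4 hfp libraries. Fat body genes summed to 473 and 309 TPM in the hfp mutant against 184 and 202 TPM in its heterozygote, and to 210 and 376 TPM in the pelo mutant against 86.4 and 302 TPM. Hemocyte and basement membrane genes summed to 1564 and 1455 TPM in the hfp mutant against 879 and 916 TPM, and to 930 and 1430 TPM in the pelo mutant against 624 and 1290 TPM. The muscle sheath, fat body and hemocyte sums were higher in both hfp mutant libraries than in both hfp heterozygote libraries. The gut and oviduct sum was not, at 45.4 TPM in the second hfp mutant library against 54.0 TPM in the second hfp heterozygote library. The part of these lists in the interactions was not tested.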

How the data were processed

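The members and gene lists were chosen with earlier results of these data known. Per the labels' protocols, ovary poly(A) RNA was made into libraries with a directional kit. HISAT2 2.0.5, featureCounts 1.5.1 and the build dm6 are named in the submitters' processing notes, which do not say whether strand was used in counting. The authors deposited log2 TPM, per the file headers. They were read as log2(TPM + 0.5) and turned to log2(TPM + 1), which understates changes of weakly expressed genes. Genes with 1 TPM in 2 of 8 libraries entered limma 3.58.1 (R 4.3.3) with a variance trend and the replicate number as a block. Like-numbered libraries deviated together (correlations over 0.1 in all pairs of groups). P values were two-sided and adjusted by Benjamini-Hochberg over 8380 genes. Named genes are hfp, pelo, otu, 12 on each side and 3 per list. The 12 were called or next in p, with equal sign in both numbers and at least 10 TPM in a group. Obp99b and others of the named genes are given by counts. Genes outside this rule (CG7443, DIP-lambda and the neighbours of dhd) were chosen after their values were seen. Coordinates are those of a RefSeq gene table of the same build. Of 100 named genes, 51 overlap another annotated gene, so their counts may be shared. Figures used Python 3.11.15 with matplotlib 3.10.9.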

Additional observations from a re-analysis of the deposited data

Results flagged for a closer look

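The hfp difference and the pelo difference, each between mutant and balancer-carrying heterozygote, were unlike in 2 genes by the interaction term of limma. For CG3397 the hfp mutant lay below its heterozygote and the pelo mutant did not, with an interaction of -6.54 (adjusted p = 0.049). The hfp heterozygote was the high group for this gene, and TM2, the stock and the loss of hfp cannot be told apart. For CG4408 the interaction was -5.71 (adjusted p = 0.049), with the hfp mutant as the low group.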

How the results depend on the processing

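The interaction call rests on the fit. From 2 genes, the count went to 0 with no replicate block, 77 with the replicate block within each genotype set, 28 with 16 total mRNA libraries, 1 with a pseudocount of 0.5, 0 with a pseudocount of 5, 0 with no filter, 1 with a filter of 5 TPM, and 1 with quantile normalization or equal medians; leaving out one replicate gave 0 to 25, the most without hfp mutant replicate 2. The hfp contrast (40) gave 10 with no replicate block, 591 nested and 133 with 16 libraries, and 22 to 315 with one replicate left out, the most again without hfp mutant replicate 2. The pelo contrast (14) gave 0, 403 and 54 under those settings, 4 and 23 with the pseudocounts, 9 with no filter, 3 with 5 TPM, 0 with quantile normalization, and 0 to 216 with one replicate left out. The heterozygote difference (13) gave 6 with no replicate block, 172 nested, 8 with no filter, 6 with quantile normalization, 8 with equal medians and 0 to 36 with one left out. The mutant difference (88) gave 44, 693, 173 and 9 to 180. The pelo inputs (2652) gave 1787 with a replicate block and 869 to 3697 with one left out. The cause was not tested. Equal medians moved the median interaction of all genes from -0.112 to 0.0643. With one replicate left out, 8 list members that never passed changed sign: Smg5 (-0.93 to 0.24), Upf1 (-0.72 to 0.33), CG31661 (-0.0722 to 2.59), Cp15 (-0.22 to 3.42), Yp1 (-0.34 to 1.46), Yp2 (-0.11 to 1.04), Yp3 (-0.44 to 1.01) and PPO2 (-1.55 to 0.28). Precision is limited by 2 libraries a group and by unknown depth.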
